A study of Saccharomyces cerevisiae with 22 samples.

Results

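Yeast fed 2.8% oxygen was compared with yeast fed air, that is 20.9% oxygen, the last step of an oxygen series in which the first of these cultures is oxygen-limited and the second is not. All 4 arrays labelled 2.8% and all 4 labelled 20.9% were taken, 8 of the 22 arrays of the series, and all 5449 genes measured were compared. In both groups the cells were Saccharomyces cerevisiae CEN.PK113-1A, a haploid of mating type alpha with no nutritional requirements, grown to steady state in glucose-limited chemostats at the same dilution rate, pH and temperature and in the same medium with ergosterol and a source of unsaturated fatty acid added. The groups differ by the oxygen in the feed gas and in part by how cells were collected. By their labels 2 of the 4 samples at 2.8% were centrifuged directly, and all 4 at 20.9% went into cold phosphate buffer. Collection is thus partly confounded with oxygen in this comparison. According to the methods of the study the 4 samples at 2.8% came from 2 cultivations and the 4 at 20.9% from 4 cultivations, and cultures at both levels were seeded with a small share of exponentially growing cells so that they would not oscillate. Which samples at 2.8% belong to the same cultivation is not given in the labels. Unless said otherwise, the spread behind the p-values below is pooled over all 22 arrays, and other levels were sampled repeatedly too. By the same methods the samples at 0.5% oxygen also came from 2 cultivations, and 4 samples at 1.0% came from a single cultivation. Part of the pooled spread is therefore that of repeated sampling, at these levels as well as at 2.8%.

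In a glucose-limited chemostat the feed sets the growth rate, and the same dilution rate was set for both groups. Yeast with ample oxygen and little glucose respires nearly all of its sugar, and can also burn ethanol, acetate and fatty acids. When oxygen runs short it keeps respiring as far as oxygen allows and ferments the rest. Yeast that is short of sugar also makes stress and storage proteins, a programme run by the zinc finger activators Msn2 and Msn4 and held down by protein kinase A when sugar is plentiful. Iron is imported through a regulon under the activator Aft1, and haploid cells keep a basal level of pheromone and receptor transcripts that rises when the mating pathway is active.

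Levels are given as log2 intensities after Robust Multichip Average (RMA) normalisation, and changes as 20.9% minus 2.8% oxygen on the log2 scale, so that a positive change is a higher level at 20.9%. A gene was called when its Benjamini-Hochberg adjusted p in limma was under 0.01, and "rose" and "fell" are kept for called genes. A chemostat sample reports the amount of a transcript as a share of the RNA on the array and says nothing of total RNA per cell, and a change in every cell cannot be told apart from a change in the share of cells that make it. Levels near the floor of the arrays hide part of a change. A gene is called dim here when its group mean was among the lowest 10% of all genes, which is below 6.64 at 2.8% and below 6.70 at 20.9% oxygen, and a fold against a dim group may be too small. Besides genes marked in place, SHH3, SPS100, FMP45, TSA2, ALD3, PEX18, HXT4, HES1, STE6, DMC1 and ATG14 were dim at 2.8%. COX5B, PFK27, SSP1, SPS1 and DAL80 were dim at 20.9%, and BAR1 at both levels.

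One array at each level stood apart from its group. Replicate 4 at 2.8% oxygen differed at least 2-fold from the mean of the other 3 arrays of its group in 214 genes, where the others did so in 2 to 6 genes. Replicate 4 at 20.9% did so in 252 genes, and the others in 20 to 43. The labels of replicates 2 and 4 at 2.8% describe cells that were centrifuged directly, whereas all other samples compared here went into cold phosphate buffer, and replicate 2 lay close to replicates 1 and 3 (lowest r with another array of the group 0.9723, with replicate 4, and highest 0.9975). For many of the lists and genes whose counts or calls moved without the arrays numbered 4, values without them are given too. Other shifts are not all given. Without these arrays 5 hexose carriers and sensors rose and 4 fell, in place of 7 and 4. In ergosterol synthesis 10 rose and 2 fell, in place of 8 and 2. Of the called genes named below, NRG1, FBP1, PDX1, MRS3, KSS1 and STE50 did not pass without both arrays (adjusted p = 0.023, 0.014, 0.011, 0.02, 0.043 and 0.021), and others are named in place.

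Mating-type transcripts were compared with the labelled strain. The pheromone gene MF(ALPHA)1 lay above 99.9% of genes at 2.8% oxygen and above 99.2% at 20.9%, and MF(ALPHA)2 above 97.5% and 43.2%. The 6 a-specific genes lay above 6.86% (BAR1) to 33.6% (MFA1) of genes at 2.8%, and among them STE6 rose by 0.66 and MFA1 fell by 0.62. The anaerobic markers DAN1, TIR1 and ANB1, at 13.34, 14.14 and 11.57 without oxygen, were at 4.28, 6.93 and 6.34 at 2.8%. DAN1 and ANB1 were dim at both levels compared.

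Of the 5449 genes, 2209 were called (40.5%), with 1014 higher at 20.9% oxygen (18.6%) and 1195 lower (21.9%). Counts of list members below are to be read beside these shares. The changes were mostly small: the median fold of called genes was 1.55 among those that rose and 1.44 among those that fell, and 357 changed at least 2-fold. Large changes were mostly rises. Of the genes that changed at least 2-fold 256 rose and 101 fell, of those that changed at least 4-fold 70 rose and 14 fell, and of those that changed at least 8-fold 31 rose and 3 fell. The 4 arrays at 2.8% did not overlap with the 4 at 20.9% in 2153 genes (39.5%), and 1895 of these were called. The median change of all genes was -0.04. With only the 8 arrays in the fit, and the spread of the other levels left out, 952 genes were called, 944 of them also among the 2209 and all 944 in the same direction.

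**Figure D1:**
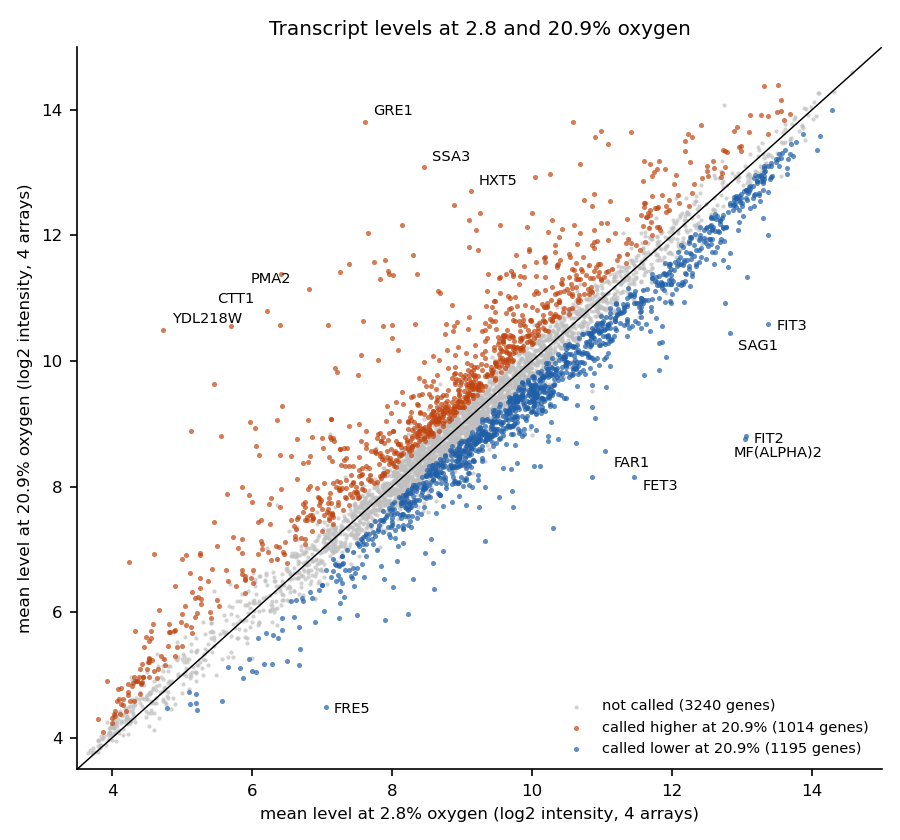
Mean log2 intensity of each of the 5449 genes at 2.8% oxygen (x axis) and at 20.9% oxygen (y axis), 4 arrays each; the line marks equal levels, orange points are the 1014 genes called higher at 20.9%, blue points the 1195 called lower and grey points the rest. The points farthest above the line, GRE1 and YDL218W, stand farther from it than any below it, where FIT2 and MF(ALPHA)2 are the farthest.

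Of the 20 genes that rose most, 10 belong to one of the lists described here, with 3 in the hydrophilin, 2 in the chaperone and 1 in the antioxidant list. GRE1 (YPL223C), a hydrophilin made under osmotic and other stress, measured 7.27, 8.51, 8.25 and 6.40 on the 4 arrays at 2.8% oxygen and 13.50, 14.04, 14.08 and 13.62 at 20.9%. The groups lay far apart, and the arrays at 2.8% spread more than those at 20.9%. GRE1 rose 73.7-fold (log2 change 6.20, standard error 0.50, adjusted p = 6.6e-09).

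SSA3 (YBL075C), the Hsp70 chaperone made when sugar is exhausted, measured 8.27, 8.49, 8.62 and 8.41 at 2.8% and 12.63, 13.18, 13.34 and 13.21 at 20.9%. Both groups were tight, and SSA3 rose (log2 change 4.64, standard error 0.17, adjusted p = 6.8e-14). CTT1 (YGR088W), the cytosolic catalase and a classical Msn2/Msn4 target, measured 6.38, 6.64, 6.34 and 5.49 against 9.71, 10.79, 11.30 and 11.38. It rose 24.0-fold (log2 change 4.58, standard error 0.31, adjusted p = 4.5e-10) from a group mean that was dim. YDL218W, a gene of unknown function, was dim at 2.8% (4.60 to 4.83) and varied at 20.9%, with 10.77, 12.17, 11.25 and, on replicate 4, 7.79. SPS100 (YHR139C), a spore wall gene, varied in the same way, with 5.06 to 6.21 at 2.8% and 10.16, 11.84, 12.26 and 7.92 at 20.9%. Replicate 4 was therefore the lowest of the aerobic arrays for both YDL218W and SPS100, by over 2 log2 units, and still above every array at 2.8%.

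**Figure D2:**
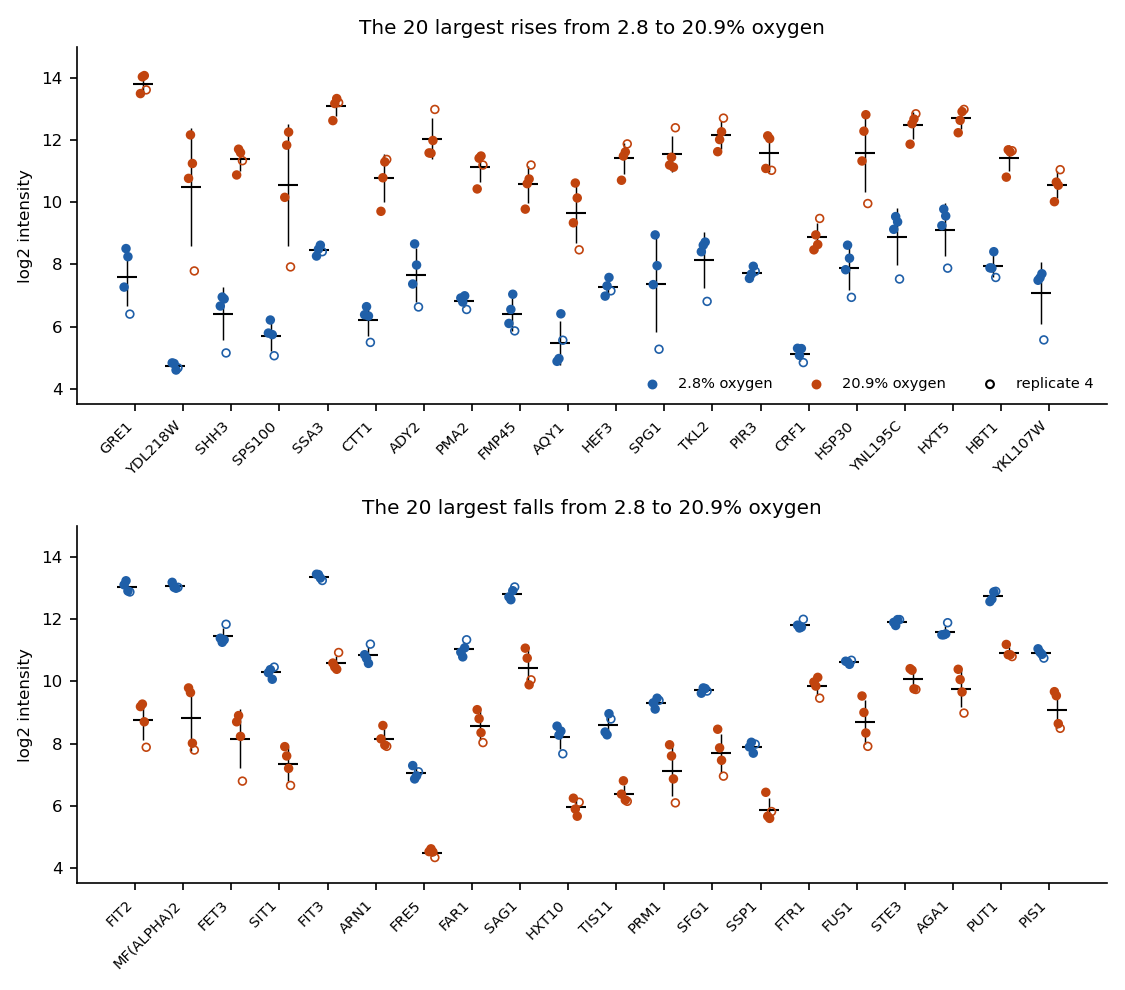
Log2 intensity on each array for the 20 genes with the largest rise (upper panel) and the 20 with the largest fall (lower panel) among called genes whose arrays do not overlap; blue is 2.8% and orange 20.9% oxygen, open circles are replicate 4, and bars give the mean and standard deviation of the 4 arrays. In each gene all arrays of one level lie above all arrays of the other, from GRE1 (log2 change 6.20) to YKL107W (3.48) and from FIT2 (-4.28) to PIS1 (-1.82).

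As a group, the 29 measured hydrophilin and stationary-phase genes had 26 members that rose, 18 of them at least 2-fold, and none that fell. Their median change was 1.45, against -0.04 for all genes. FMP45 (4.19), SPG1 (4.16) and RTN2 (3.43) followed GRE1, and HSP12, a small membrane-binding stress protein, rose by 0.87. MOH1, HOR7 and SPG3 did not pass (0.06, 0.14 and 0.20). Array means of the list were 10.23, 10.41, 10.42 and 9.35 on the arrays at 2.8% and 11.57, 11.89, 11.99 and 12.17 at 20.9%, so the arrays numbered 4 were the lowest and the highest. Without them 25 members rose and the median was 1.15.

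Chaperones and heat shock proteins, which fold and disaggregate proteins, had 24 members of 31 that rose and 2 that fell, with a median of 0.85. The largest changes after SSA3 were in HSP30 (3.70), a plasma membrane protein that restrains the proton pump, SSA4 (3.15), HSP42 (2.72) and SSE2 (2.63). HSP82 rose by 1.29, its near-constitutive copy HSC82 by 0.42, and the Hsp40 SIS1 by 1.16. The exceptions were SSB2 (-0.56), a chaperone bound to ribosomes, and MGE1 (-0.67), a cofactor of the mitochondrial Hsp70. With the arrays numbered 4 left out the chaperone counts were 22 and 3. Of 14 genes of TRiC and prefoldin, which fold actin and tubulin, 3 fell and none rose (median -0.19), where 21.9% of all genes fell, and 1 rose and 1 fell without the arrays numbered 4.

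Antioxidant enzymes split. Of 37 measured, 16 rose and 4 fell. Besides CTT1 the largest rises were in TSA2 (2.72), a peroxiredoxin, CTA1 (1.83), the peroxisomal catalase, and GTT1 (1.69), a glutathione transferase. SOD1 (-0.07), TSA1 (0.08) and GLR1 (-0.10), the abundant superoxide dismutase, peroxiredoxin and glutathione reductase, did not pass. YHB1, the flavohaemoglobin that removes nitric oxide, fell by 1.36, with 13.26 to 13.54 at 2.8% and 12.54, 12.38, 11.85 and 11.28 at 20.9%, and the glutaredoxins GRX8 and GRX3 fell by 1.29 and 0.65. The median change of the list was 0.27, and 0.04 without the arrays numbered 4, when 14 rose and 7 fell. With only the 8 arrays 9 rose and 1 fell.

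Storage carbohydrate genes moved in the same direction as the stress genes. Of 22 genes of trehalose and glycogen metabolism 13 rose and 1 fell, and the median was 0.57. TSL1 (1.48) and TPS2 (1.18), of the trehalose synthase complex, rose together with ATH1 (1.19) and NTH1 (0.56), which break trehalose down. SGA1, a glucoamylase of sporulating cells, rose by 1.35, and the glycogen synthase GSY1 fell by 0.78 (its paralogue GSY2 measured 0.54 and did not pass). Without the arrays numbered 4, 11 rose and 2 fell, and with only the 8 arrays 7 rose and 1 fell.

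Among 32 regulators of stress and nutrient responses 14 rose and 3 fell (8 and 1 with only the 8 arrays). The repressors MIG2 (1.51), XBP1 (1.50) and NRG1 (0.81), the Snf1 kinase subunit SIP2 (0.92), the protein kinase A subunits TPK2 (0.87) and BCY1 (0.72) and the kinase YAK1 (0.70) rose. MSN2 rose by 0.34 and its partner MSN4 fell by 0.47. MIG2 was dim at both levels. Transcript levels of these factors do not measure their activity.

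In 14 of 17 pairs of related proteins the seldom-used partner rose while the housekeeping partner fell, did not pass, or rose less. These pairs were picked after the changes had been seen, so their number is a description. PMA2 (YPL036W), the minor plasma membrane proton pump, measured 6.92, 6.79, 6.99 and 6.55 at 2.8% and 10.43, 11.42, 11.49 and 11.20 at 20.9%. It rose 20.0-fold (log2 change 4.32, standard error 0.19, adjusted p = 8e-13), while PMA1, the main pump, fell by 0.41. HEF3, a second translation elongation factor 3, rose by 4.17 and YEF3 fell by 0.58. SHH3, a relative of a succinate dehydrogenase anchor, rose by 4.97 and SDH3 fell by 0.33. NDE2 rose by 3.01 and NDE1, the other external NADH dehydrogenase, fell by 0.39. Without the arrays numbered 4 the falls of PMA1 and YEF3 did not pass (adjusted p = 0.034 and 0.013).

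The pentose phosphate pathway, which makes NADPH and pentoses, showed this pattern in 4 of its steps. TKL2 (transketolase) rose by 4.02, NQM1 (transaldolase) by 3.39, GND2 (6-phosphogluconate dehydrogenase) by 2.88 and SOL4 (6-phosphogluconolactonase) by 2.55. Their partners TKL1 (-0.57), TAL1 (0.04), GND1 (-0.02) and SOL3 (0.18) did not pass. TKL2 measured 8.41, 8.62, 8.72 and 6.81 at 2.8% and 11.63, 12.02, 12.27 and 12.71 at 20.9%. From 1.0 to 2.8% oxygen TKL2 changed by -1.75 (adjusted p = 0.0006), from a mean of 9.89 to one of 8.14. Of the 13 genes of the pathway 5 rose and 2 fell.

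The classical oxygen-regulated pairs behaved in several ways. COX5A and COX5B, the aerobic and hypoxic forms of a cytochrome oxidase subunit, fell alike (-0.60 and -0.57). CYC1, the aerobic cytochrome c, fell by 1.03 and CYC7 measured 0.19 and did not pass. AAC3, the anaerobic ADP/ATP carrier, rose by 1.01 from a dim level with overlapping arrays, and did not pass without the arrays numbered 4 (adjusted p = 0.061). PET9, the main carrier, fell by 0.26. ANB1 and its aerobic counterpart HYP2 did not pass (-0.16 and 0.09).

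Genes for using acetate and ethanol rose in part. ADY2 (YCR010C), an acetate carrier, measured 7.37, 8.66, 7.98 and 6.63 at 2.8% and 11.59, 11.58, 11.99 and 12.99 at 20.9%. It rose 20.8-fold (log2 change 4.38, standard error 0.42, adjusted p = 6.8e-08), and it was already higher at 2.8 than at 1.0% oxygen by 1.82 (adjusted p = 0.0076). ALD3 (3.25) and ALD2 (1.17), cytosolic aldehyde dehydrogenases, and ACS1 (2.23), the acetyl-CoA synthetase of respiring cells, rose. ADH1, the fermentative alcohol dehydrogenase, fell by 0.71. In all 9 of 23 genes of this group rose and 5 fell. ADH2, which oxidises ethanol, measured 12.40 to 13.07 at 2.8% and 13.98 to 14.11 at 20.9%, a change of 1.32 that did not pass (adjusted p = 0.019) but passed when only the 8 arrays were fitted (adjusted p = 0.0003). From 1.0 to 2.8% it had risen by 3.47.

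In the glyoxylate cycle and gluconeogenesis 7 of 17 genes rose, all of them at least 2-fold, and 2 fell. SIP4, an activator of gluconeogenic genes, rose by 2.86 and was dim at 2.8%. MDH2 (1.96), ICL1 (1.90), CIT3 (1.80), ICL2 (1.66), FBP1 (1.35) and IDP2 (1.34) rose with it. PCK1, phosphoenolpyruvate carboxykinase, went the other way without passing, with 9.57, 10.01, 9.86 and 10.44 at 2.8% and 9.07, 8.75, 9.07 and 8.76 at 20.9% (log2 change -1.06, adjusted p = 0.013). With only the 8 arrays the adjusted p of PCK1 was 0.0027. The median of the list was 0.54. Its falls depended on the fit. Without the directly centrifuged samples 6 genes rose and 0 fell, and with only the 8 arrays 7 rose and 1 fell.

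Fatty acid oxidation genes moved to one side. Of 19 genes 16 rose and none fell, and the median was 1.14. IDP3, which supplies NADPH in peroxisomes, measured 8.18, 8.25, 8.73 and 8.11 at 2.8% and 10.18, 10.44, 10.41 and 11.31 at 20.9% (log2 change 2.27, standard error 0.18, adjusted p = 5.3e-09). POT1 (1.82), YAT1 (1.63), YAT2 (1.51) and CAT2 (1.42), a thiolase and the carnitine acetyltransferases, rose too, and POX1, the first oxidase of the pathway, measured 0.50 and did not pass. Averaged over the list, the arrays gave 9.90, 9.96, 10.07 and 9.39 at 2.8% and 10.71, 10.79, 10.71 and 11.53 at 20.9%. Replicate 4 again held the lowest and the highest value, and without both such arrays 13 genes rose with a median of 0.56. Of 27 peroxisome biogenesis genes 12 rose and 3 fell (9 and 3 without those arrays, 4 and 0 with only the 8 arrays), led by the import factor PEX18 (1.55).

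Hexose carriers changed one by one. HXT5 (YHR096C), the carrier of starved cells, measured 9.25, 9.78, 9.56 and 7.88 at 2.8% and 12.24, 12.64, 12.92 and 12.99 at 20.9%, and rose (log2 change 3.58, standard error 0.31, adjusted p = 2.1e-08). HXT2 rose by 2.36, having also risen by 1.64 from 1.0 to 2.8% oxygen, and HXT4 rose by 2.11. HXT10 fell by 2.25 to a dim level. HXT7, the main high-affinity carrier, whose probe set also matches other transcripts, fell by 0.26, and HXT3 (0.24) did not pass. Of 17 carriers and sensors 7 rose and 4 fell (5 and 2 with only the 8 arrays).

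Glycolysis as a whole did not move to one side: 5 of 20 genes rose, 6 fell and the median was 0.11. The 6 genes that fell act in phosphorylating glucose or fructose 6-phosphate, among them HXK2 (-1.06), a hexokinase, PFK1 (-0.47) and PFK2 (-0.28), the phosphofructokinase subunits, and PFK27 (-1.36), which makes their activator. PFK26, a second enzyme for that activator, rose by 1.09. Of the 12 genes of glycerol metabolism 6 rose and none fell, among them DAK2 (1.86, dim at 2.8%) and GPD1 (1.13). With cyclic loess normalisation 12 glycolytic genes rose and 4 fell.

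Respiratory genes were lower where oxygen did not limit the culture. Of 27 nuclear genes of the respiratory chain 24 fell and 1 rose, NDE2, and the median was -0.54. CYC1 (YJR048W), cytochrome c, measured 13.39, 13.39, 13.25 and 13.16 at 2.8% and 12.55, 12.27, 12.03 and 12.22 at 20.9%. It fell 2.04-fold (log2 change -1.03, standard error 0.10, adjusted p = 7.8e-08). COX9, a cytochrome oxidase subunit, fell by 1.11. The falls of single genes were small, from 0.26 for COR1, a subunit of the cytochrome bc1 complex, upwards.

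The mean of the respiratory list was 12.25, 12.27, 12.24 and 11.97 at 2.8% and 11.76, 11.68, 11.63 and 11.99 at 20.9%. The 2 arrays numbered 4 were the only ones to overlap. Without them 24 genes fell as well, and the median moved to -0.64. Of 16 ATP synthase genes 14 fell (median -0.45), led by ATP20 (-1.12), and 15 fell without those arrays. Cyclic loess lowered these counts to 17 of the respiratory chain and 7 of ATP synthase, and the fit of only the 8 arrays to 13 and 5.

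**Figure D3:**
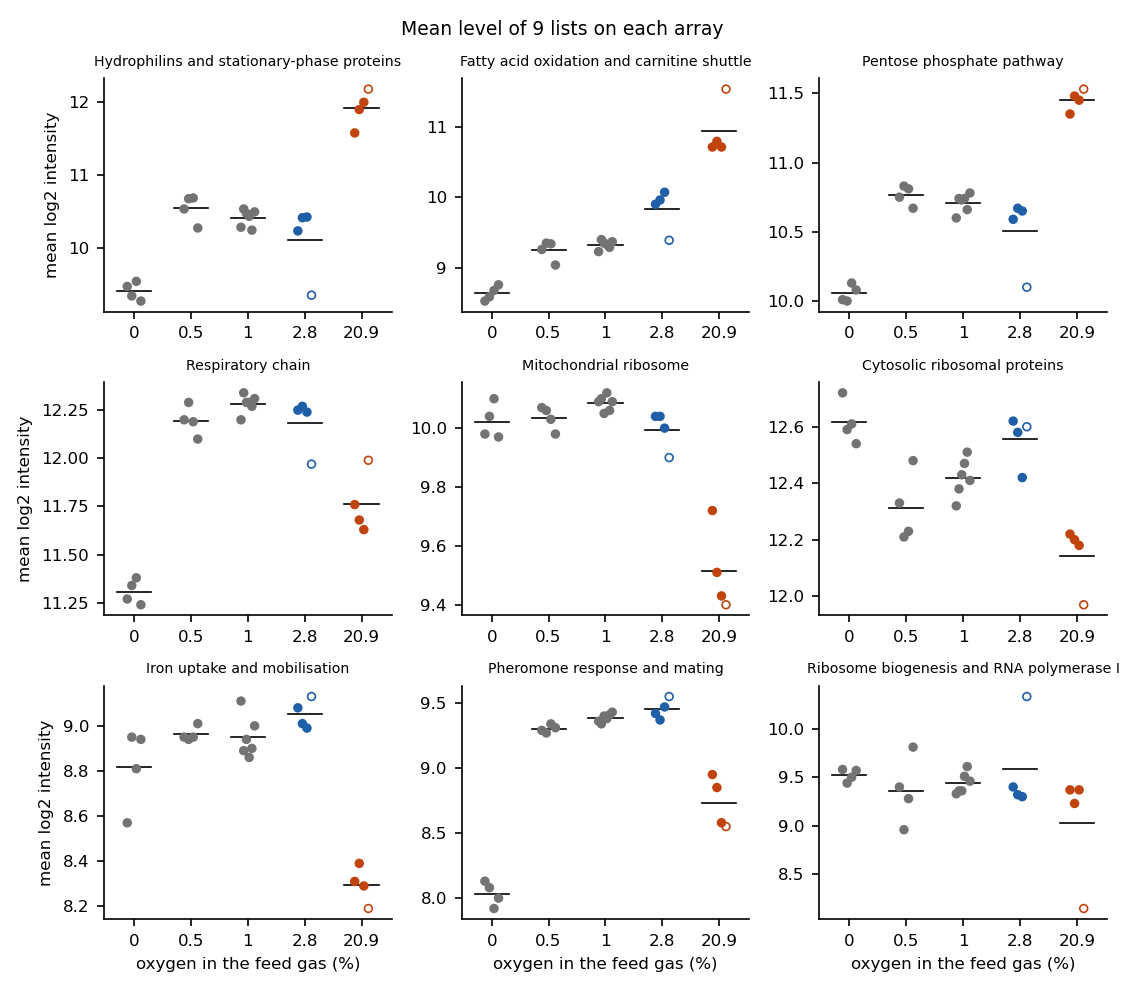
Mean log2 intensity of the genes of 9 lists (y axis) on each array at the 5 oxygen levels (x axis); blue marks 2.8% and orange 20.9% oxygen, grey the other levels, open circles are replicate 4 of the coloured levels, and lines are group means. The respiratory chain lay at 11.63 to 11.99 at 20.9% oxygen and up to 12.27 at 2.8%, and in ribosome biogenesis the groups differed only through the open circles (10.33 and 8.15).

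Mitochondrial translation and import fell with respiration. Of 75 mitochondrial ribosomal protein genes 64 fell and 1 rose, MRP20, and the median was -0.51. Array means lay between 9.90 and 10.04 on the arrays at 2.8% and between 9.40 and 9.72 at 20.9%, with no overlap. Of 33 import genes 18 fell and none rose, with the small Tim proteins TIM10 (-0.93) and TIM9 (-0.88) first. Without the arrays numbered 4, 58 ribosomal and 20 import genes fell, and with only the 8 arrays 31 and 13.

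Of 16 genes of the tricarboxylic acid cycle 7 fell and 2 rose, and the median was -0.20. IDH2 (-0.92) and IDH1 (-0.76), which form isocitrate dehydrogenase, fell most. LAT1 (0.38) and PDX1 (0.30), of the pyruvate dehydrogenase complex that feeds the cycle, rose. With cyclic loess, and also with only the 8 arrays, 3 genes of the cycle fell.

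The regulators of respiratory genes moved little. HAP4, the activating subunit of the Hap2/3/4/5 complex, fell by 0.44, HAP3 by 0.71, and HAP1, the haem-dependent activator, rose by 0.73. The fall of HAP4 did not pass without the arrays numbered 4 (adjusted p = 0.016) or without the directly centrifuged samples (adjusted p = 0.018).

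Of the 20 genes that fell most, 8 were in the list of iron uptake and mobilisation and 7 in that of pheromone response and mating. FIT2 (YOR382W), a cell wall mannoprotein that holds siderophore-bound iron, measured 13.11, 13.24, 12.91 and 12.88 at 2.8% and 9.19, 9.27, 8.70 and 7.88 at 20.9%. The groups were well apart, and FIT2 fell 19.4-fold (log2 change -4.28, standard error 0.22, adjusted p = 1.1e-11). FET3 (YMR058W), the multicopper oxidase of high-affinity uptake, measured 11.39, 11.26, 11.34 and 11.84 at 2.8% and 8.70, 8.90, 8.23 and 6.79 at 20.9%. It fell 9.91-fold (log2 change -3.31, standard error 0.32, adjusted p = 6.3e-08), and its permease partner FTR1 fell by 1.97. The siderophore carriers SIT1 (-2.96), ARN1 (-2.70) and ENB1 (-1.78), the mannoprotein FIT3 (-2.78) and the reductase relative FRE5 (-2.56, to a dim level) fell as well.

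Further members act around the uptake system. AFT1, the activator of the regulon, fell by 0.89. TIS11 (-2.23), which marks transcripts of iron-using proteins for decay, fell to a dim level. CCC2 (-0.90) and ATX1 (-0.71), which bring copper to Fet3, and SMF3 (-0.60) and MRS3 (-0.51), carriers in the vacuole and the mitochondrion, fell. Not all of the group did: ARN2 (0.14), FRE2 (-0.08), FRE3 (-0.22), HMX1 (-0.39) and MRS4 (-0.29) did not pass. FRE4, a siderophore reductase, rose by 2.42 (5.99 to 6.22 at 2.8% and 8.05 to 8.88 at 20.9%) and BIO5, a carrier of biotin precursors, by 2.13, both from dim levels.

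In all 16 of 34 genes of iron uptake and mobilisation fell, 9 of them at least 2-fold, and 4 rose. The median was -0.41. The mean of the list was 9.08, 9.01, 8.99 and 9.13 at 2.8% and 8.31, 8.39, 8.29 and 8.19 at 20.9%, so that the array means were tight within each level. Without the arrays numbered 4, 16 fell and 5 rose. Of 19 copper and zinc genes 5 fell and 4 rose, with FRE7 (-1.05), IZH3 (-1.03) and CTR2 (-0.80) falling and ZPS1 (0.88) rising. Among all genes 21.9% fell and 18.6% rose.

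Of 26 hypoxic and anaerobic genes 9 rose and 2 fell, with a median of 0.35 (4 and 1 with only the 8 arrays). TIR3, a cell wall mannoprotein, measured 7.17, 7.34, 7.05 and 6.95 at 2.8% and 8.73, 9.27, 10.18 and 8.13 at 20.9%, and HES1, an oxysterol-binding protein, 4.52 to 4.73 and 6.55, 7.89, 8.13 and 5.15. Both rose (1.95 and 2.34) and both stayed below their level at 0% oxygen, where TIR3 was at 13.45 and HES1 at 10.75. UPC2, the sterol-sensing activator, rose by 0.88. SUT1, a regulator of sterol uptake, fell by 1.31, and replicate 4 was the highest at 2.8% (8.58, 8.70, 9.22 and 10.77). Leaving out the arrays numbered 4, the change of SUT1 was -0.76 (adjusted p = 0.00028). HEM13, a haem synthesis gene induced when haem is scarce, fell by 0.88. Between 0 and 1.0% oxygen the median change of the same list was -3.02.

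Sterol synthesis, which consumes oxygen, had 8 of 24 genes that rose and 2 that fell (5 and 1 with only the 8 arrays), with a median of 0.09. Array means were 11.39 to 11.41 at 2.8% and 11.53, 11.62, 11.78 and 11.36 at 20.9%. Aerobic replicate 4 thus lay below every array at 2.8%. DAP1 (0.96), which assists the sterol-making cytochrome P450, ERG25 (0.78) and the reductase HMG1 (0.66) rose, and MVD1 fell by 0.65. Of 16 genes of haem synthesis and its regulators 3 rose and 5 fell, where 18.6% of all genes rose and 21.9% fell.

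Mating genes fell as well. MF(ALPHA)2 (YGL089C), the minor gene for the alpha pheromone, measured 13.19, 13.03, 13.00 and 13.03 at 2.8% and 9.79, 9.64, 8.01 and 7.79 at 20.9%. Its arrays lay close together at 2.8% and spread widely at 20.9%, and it fell 19.1-fold (log2 change -4.26, standard error 0.30, adjusted p = 1.3e-09). The samples at 2.8% came from 2 cultivations and those at 20.9% from 4, so these spreads do not measure the same thing. MF(ALPHA)1, the major gene, fell by 0.53 from a mean of 14.12, above 99.9% of genes at 2.8%. A change so near the top of the range may be understated. FAR1 (YJL157C), which stops the cell cycle before mating, measured 10.94, 10.79, 11.08 and 11.34 against 9.09, 8.80, 8.35 and 8.03, a fall of 5.54-fold (log2 change -2.47, standard error 0.18, adjusted p = 1.9e-09).

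SAG1 (-2.39), the alpha-agglutinin, STE3 (-1.85), the receptor for the a pheromone, AGA1 (-1.83), FUS1 (-1.93) and PRM1 (-2.19), which act in cell contact and fusion, and SST2 (-1.71), which turns the G protein off, fell as well. Of the signalling proteins FUS3 (-1.02) and KSS1 (-0.54) fell. STE11 (0.45) and STE50 (0.31) rose, and STE5 (0.03) and STE7 (0.19) did not pass. STE12, the activator of the pathway, was called (-0.39), but its arrays overlapped and it did not pass without the arrays numbered 4 (adjusted p = 0.083).

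In all 22 of 39 pheromone and mating genes fell and 3 rose. Array means were 9.42, 9.37, 9.47 and 9.55 at 2.8% and 8.95, 8.85, 8.58 and 8.55 at 20.9%. Aerobic replicates 3 and 4 were the lowest, as they were for MF(ALPHA)2. The median was -0.53, and -0.38 without the arrays numbered 4, when 20 genes fell.

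The open reading frames of the Ty3 retrotransposon, whose transcription is known to respond to pheromone, were looked up after the changes had been seen. YGR109W-B measured 9.53, 9.22, 9.54 and 9.79 at 2.8% and 7.76, 7.86, 7.91 and 7.82 at 20.9% (log2 change -1.68, standard error 0.10, adjusted p = 3.6e-11). YGR109W-A (-1.80) and YIL082W-A (-1.62) fell as well. Copies of a retrotransposon share sequence, so these 3 probe sets may not be independent.

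Cell cycle and histone genes fell modestly. Of 25 genes of daughter-cell separation and cyclins 11 fell and none rose (6 fell with only the 8 arrays). Besides FAR1 these included the G1 cyclins CLN2 (-1.05) and CLN3 (-0.81), the mitotic cyclin CLB2 (-0.84, to a dim level) and AMN1 (-0.86), which acts in daughter cells at the exit from mitosis. Of 10 histone genes 6 fell, with HTB2 (-1.02) and HTA2 (-0.81) first, and 1 rose, the centromeric CSE4 (0.45); with only the 8 arrays 2 fell. Meiosis and sporulation genes were near the floor of the arrays, with list means of 5.83 to 5.89 at 2.8% and 6.16 to 6.26 at 20.9%. Of 29 such genes 12 rose (7 with only the 8 arrays), among them SPS100 (4.84), DMC1 (1.28) and the master regulator IME1 (1.06), and 2 fell, SSP1 (-2.03) and SPS1 (-0.91).

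Ribosomal protein genes were lower at 20.9% oxygen by a small and even margin. Of 128 cytosolic ribosomal protein genes 98 fell and none rose, with a median of -0.39, and 1 fell at least 2-fold, RPS28B (-1.21). Most of these proteins are encoded by 2 nearly equal genes, and 9 of the probe sets are not specific to 1 transcript, so paralogues may share signal. Averaged over the list, the arrays gave 12.62, 12.58, 12.42 and 12.60 at 2.8% and 12.22, 12.20, 12.18 and 11.97 at 20.9%. The groups did not overlap. The count fell to 67 without the arrays numbered 4, to 55 without the directly centrifuged samples, to 49 with cyclic loess and to 38 with only the 8 arrays, and the median lay between -0.21 and -0.39 in these settings.

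Ribosome biogenesis genes differed only through 2 arrays. Of 82 genes 15 were called lower and none higher, where 21.9% of all genes were called lower, and the median was -0.53. The mean of the list was 9.40, 9.32 and 9.30 at 2.8% and 9.37, 9.23 and 9.37 at 20.9% on replicates 1 to 3, which overlap, while replicate 4 lay at 10.33 at 2.8% and at 8.15 at 20.9%. Without both arrays limma called 0 of the 82, with 12 at an unadjusted p under 0.05 (3 higher and 9 lower), and the median was 0.02. With only the 8 arrays none passed either. Aminoacyl-tRNA synthetases behaved in part alike: 12 of 18 fell (median -0.45), HTS1 (-0.88) most, and 6 fell and 1 rose without these arrays. Without the directly centrifuged samples 4 of them fell, and with only the 8 arrays 2. Replicate 4 at 2.8% stood at 11.48 in this list and the others at 11.06 or below.

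Of 33 autophagy genes 22 rose and none fell, with a median of 0.57. ATG34, a receptor for vacuolar enzymes, rose by 1.63, ATG14 by 1.22, the kinase ATG1 by 1.14 and ATG8, the ubiquitin-like protein of the autophagosome membrane, by 0.76. Without the arrays numbered 4, 13 rose and 1 fell, and the median was 0.34, and with only the 8 arrays 11 rose. The rises of ATG1 and ATG8 did not pass there (adjusted p = 0.016 and 0.019). Of 33 proteasome genes 9 rose and none fell, where 18.6% of all genes rose. RPN4, the activator of the proteasome genes, measured 10.46, 10.66, 10.67 and 10.34 at 2.8% and 11.37, 11.67, 11.88 and 11.90 at 20.9% (log2 change 1.17, standard error 0.14, adjusted p = 7.6e-07), and each of the other 8 rose by less than 0.5. The count of proteasome genes that rose was 20 with cyclic loess, 7 without the arrays numbered 4, when 1 fell, and 2 with only the 8 arrays. Of 30 genes of translocation and glycosylation in the endoplasmic reticulum 9 fell and 1 rose (2 and 0 with only the 8 arrays).

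Genes of nitrogen use moved both ways. Of 29 genes 12 fell and 7 rose (6 and 4 with only the 8 arrays). PUT1 (YLR142W), proline oxidase, measured 12.57, 12.65, 12.88 and 12.90 at 2.8% and 11.19, 10.86, 10.86 and 10.80 at 20.9%, and fell 3.53-fold (log2 change -1.82, standard error 0.13, adjusted p = 1.8e-09). DAL2 (-1.79), of allantoin breakdown, DAL80 (-1.60), a repressor, GDH3 (-1.53), a glutamate dehydrogenase, and the ammonium carrier MEP2 (-1.30) fell. MEP2 did not pass without the arrays numbered 4 (adjusted p = 0.015). The genes that rose included GAD1 (2.22), UGA1 (0.64) and UGA2 (0.79), which form the path from glutamate through gamma-aminobutyrate to succinate, and GDH2 (0.94), which releases ammonium from glutamate.

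Of 70 amino acid biosynthesis genes 6 rose and 12 fell, where 18.6% of all genes rose and 21.9% fell. The balance depended on replicate 4: 9 rose and 9 fell without that array at 2.8%, and 10 rose and 9 fell without both arrays numbered 4, when the median was 0.09 in place of -0.09. With only the 8 arrays 1 rose. Among the 6, ARG1 (1.22) and ARG7 (1.01), of arginine synthesis, rose most, and the falls were led by SER3 (-0.79) and MET3 (-0.77). PDR12, an exporter of organic acids, changed most in the Ehrlich pathway list, with 13.02 to 13.10 at 2.8% and 11.07 to 11.72 at 20.9% (log2 change -1.74, adjusted p = 1.7e-09). FDH1, formate dehydrogenase, rose by 3.21 (10.25 to 11.21 at 2.8% and 13.56 to 14.05 at 20.9%) after a rise of 3.07 between 1.0 and 2.8%.

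**Figure D4:**
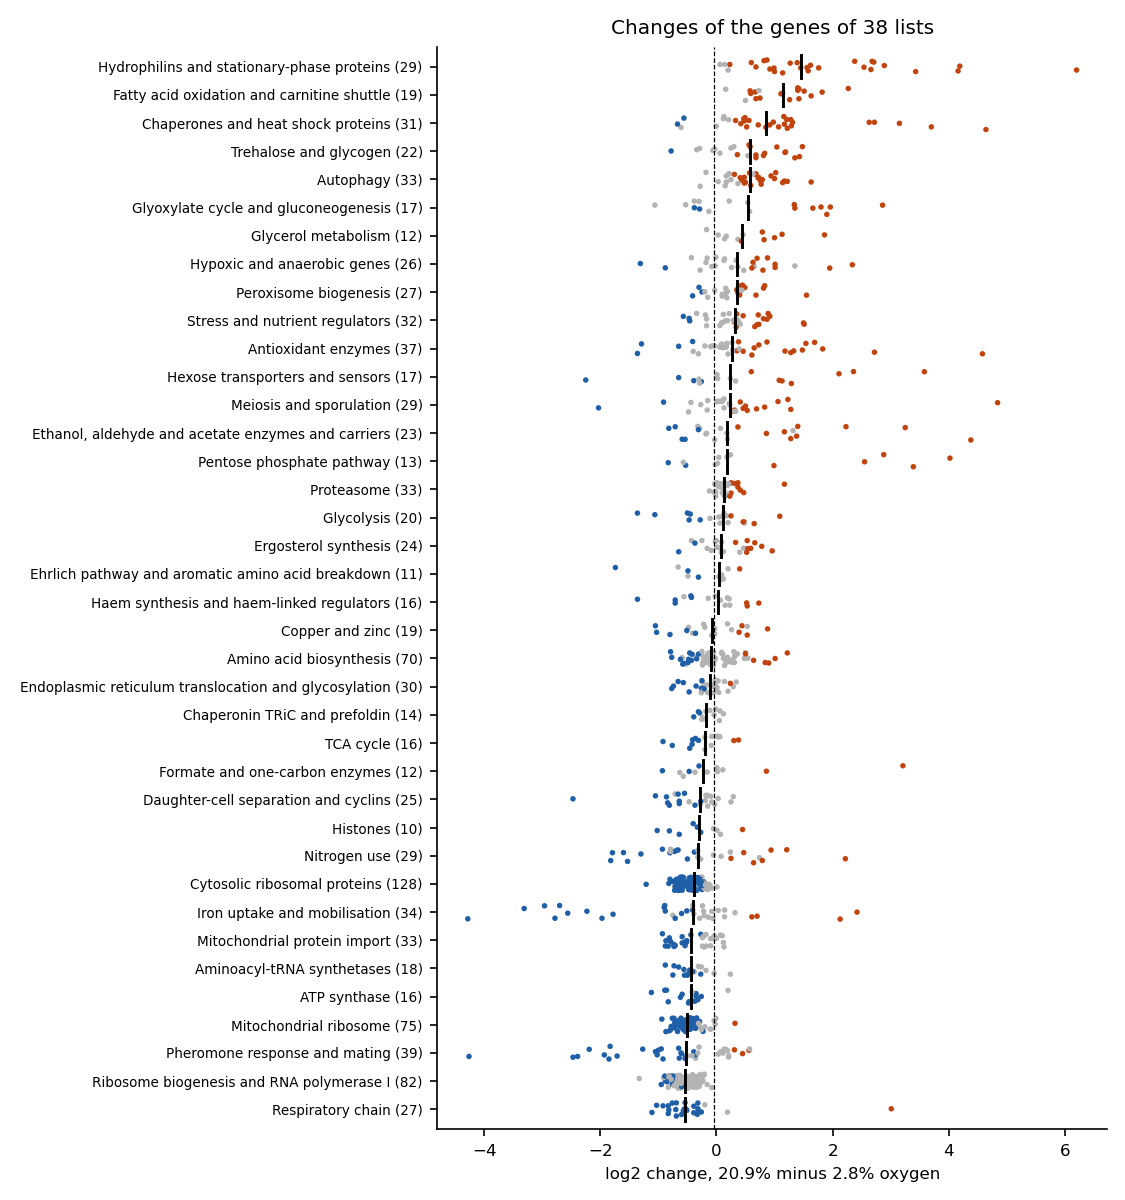
Log2 change (20.9% minus 2.8% oxygen, x axis) of each measured gene of 38 lists (rows, number of genes in parentheses), ordered by the median, which is the black bar; orange and blue points are genes called higher and lower, grey points were not called, and the dashed line is the median of all genes (-0.04). The medians run from -0.54 (respiratory chain) to 1.45 (hydrophilins and stationary-phase proteins), and in the pentose phosphate pathway 4 genes stand apart at 2.55 to 4.02.

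From 1.0 to 2.8%, 93 genes were called (1.71%). Of the 256 genes that rose at least 2-fold from 2.8 to 20.9%, 22 were also called from 1.0 to 2.8%, with 14 up and 8 down. The rise from 2.8 to 20.9% was larger than the whole range of the group means from 0 to 2.8% in 210 of the 256, and in 238 the mean at 20.9% was above the other 4. Of the 101 genes that fell at least 2-fold the step was larger than that range in 72, and 4 differed between 1.0 and 2.8%. These genes were chosen for the size of the last step, so the counts describe them and are no test.

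The first step of oxygen supply, from 0 to 1.0%, shares no array with the last step, so their calls can be set side by side. Both use the same estimate of each gene's spread, so the calls are not independent. At the first step 1557 genes were called (28.6% of all genes, against 40.5% at the last step), 782 higher and 775 lower at 1.0%. Of the genes called at both steps, 771 in number, which are 49.5% of the first and 34.9% of the last, 250 rose and then fell, 202 rose at both steps, 195 fell at both and 124 fell and then rose. No direction held most of them, and 1438 genes (65.1% of the 2209) were called at the last step only.

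The lists differed in this respect. In the respiratory chain 23 of the 25 genes that rose at the first step fell at the last, as did 12 of 14 in ATP synthase. In the pheromone list it was 20 of 29, and in nitrogen use 10 of 17. In the hydrophilin list 16 of the 19 genes that rose at the first step rose again, and 9 of 11 in fatty acid oxidation. Of the 22 hypoxic genes that fell at the first step 9 rose at the last. Of the mitochondrial ribosomal proteins only 8 had risen at the first step and 1 had fallen, whereas 64 fell at the last, and of the 98 cytosolic ribosomal protein genes that fell at the last step 14 had also fallen at the first.

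**Figure D5:**
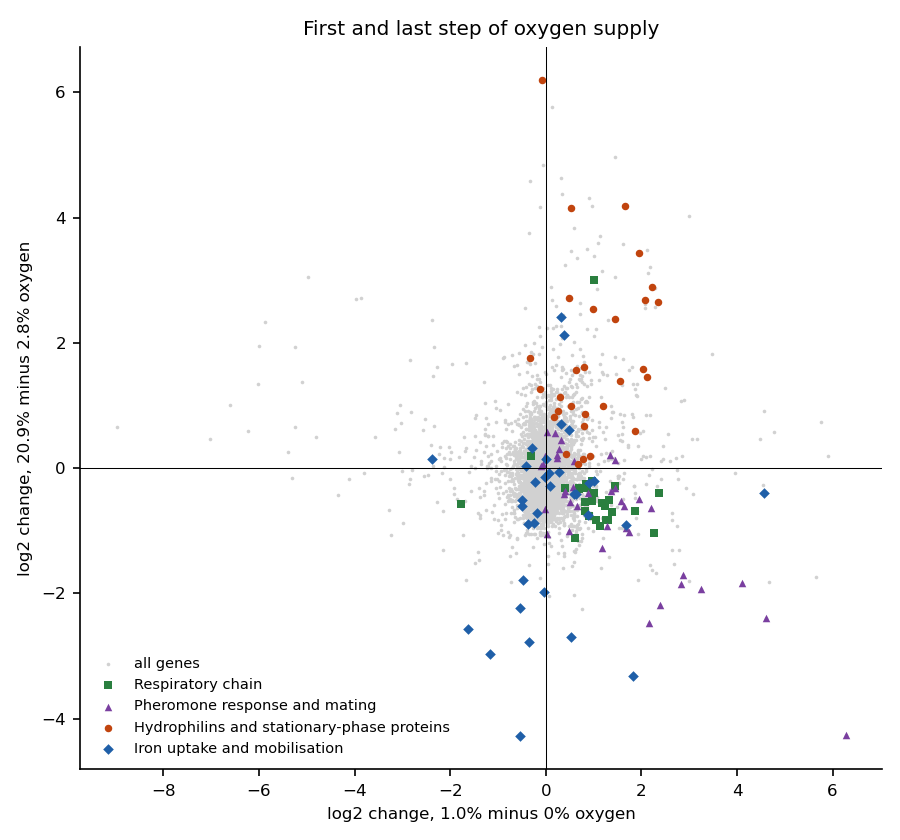
Log2 change of each gene from 0 to 1.0% oxygen (x axis) and from 2.8 to 20.9% oxygen (y axis), which share no array; grey points are all genes and 4 lists are marked. Respiratory (squares) and mating genes (triangles) lie mostly at the lower right, having risen and then fallen, hydrophilin genes (circles) mostly at the upper right, with GRE1 close to 0 on the x axis, and the iron genes that fell most at the last step (diamonds) to either side of 0 on the x axis.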

How the data were processed

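Each sample of chemostat RNA was hybridised to a Yeast Genome 2.0 GeneChip. For 5716 probe sets the authors deposited log2 values from RMA, which corrects background, makes the distributions of arrays equal and combines the probes of a set, and these values were taken without further normalisation. Medians of the 22 arrays lay between 9.036 and 9.099, and the number of cultivations limits the precision. Probe sets were named through a table of the platform's genes, updated to the S. cerevisiae R64 reference: 5498 named 1 gene and 218 none. For 47 genes with several probe sets, 1 specific to the gene was preferred, then the brightest, which left 5449 genes. Genes of the lists without a probe set of their own (18 of 1166 entries) were not analysed here.

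Groups came from the labels. One linear model with all 5 oxygen levels was fitted to the 22 arrays with limma 3.58.1 in R 4.3.3, and levels were compared by contrasts with moderated variances, two-sided, with Benjamini-Hochberg adjustment over 5449 genes and a threshold of 0.01, as in the study's methods. All 5 levels share 1 estimate of each gene's spread. The lists and the comparison itself were chosen with earlier results of these data known; lists are described by counts and medians, with no test. Genes named are the 20 with the largest change in each direction among called genes whose arrays do not overlap, and members of the 38 lists; other genes are marked where they occur. The fit was tested on simulated data with independent noise on each array. That test held no repeated sampling of a culture and no outlying array, and so does not bear on either. Tables and figures were made with Python 3.11.15, pandas 2.3.3 and Matplotlib 3.10.9. Alternatives were the 8 arrays alone, other normalisations, probe set rules, filters, variance models, thresholds, and fits without single arrays or the directly centrifuged samples. Leaving out both arrays numbered 4 together was chosen after seeing the data.

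Same-numbered arrays were checked for pairing: correlations of their deviations from the group means lay between -0.595 and -0.196. None was positive, but the lowest was that of the outlying arrays numbered 4. Deviations within a group also depend on each other, so the check cannot exclude pairing. The main fit used none. Protein measurements of the study were not used here.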

Additional observations from a re-analysis of the deposited data

Results flagged for a closer look

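Groups of 4 arrays were checked over the 40 genes with the largest changes and the means of 38 lists. In 23 of 156 such groups 1 array lay far from the other 3 relative to the range of the group. All groups come from the same 8 arrays and the genes were chosen by their change. The count is therefore a description and was not set against chance. Replicate 4 at 2.8% oxygen was that array in 14 and replicate 4 at 20.9% in 5, and 16 of the 23 were list means. The cause was not tested.

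At 2.8% oxygen replicate 4 was low in SHH3 (5.15, the others from 6.66), TKL2 (6.81, from 8.41) and YKL107W (5.57, from 7.49) and high in AGA1 (11.89, others up to 11.53). Its list means were low for antioxidant enzymes (9.78, from 10.25), trehalose and glycogen (9.44, from 10.02), the pentose phosphate pathway (10.10, from 10.59), glycerol metabolism (9.88, from 10.07), the respiratory chain (11.97, from 12.24) and autophagy (7.92, from 8.30). They were high for TRiC and prefoldin (10.40, others up to 10.25), amino acid biosynthesis (11.34, up to 11.06), aminoacyl-tRNA synthetases (11.48, up to 11.06) and ribosome biogenesis (10.33, up to 9.40).

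At 20.9% oxygen replicate 4 was high in fatty acid oxidation (11.53, others up to 10.79) and peroxisome biogenesis (9.36, up to 9.07) and low in nitrogen use (9.45, from 9.72), cytosolic ribosomal proteins (11.97, from 12.18) and ribosome biogenesis (8.15, from 9.23). Other arrays that lay apart were replicate 1 at 20.9% in HBT1 (10.81, the others from 11.62) and in PUT1 (11.19, up to 10.86), replicate 3 at 20.9% in amino acid biosynthesis (11.47, up to 11.04) and replicate 1 at 2.8% in MF(ALPHA)2 (13.19, up to 13.03).

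Of 218 probe sets without a gene name, which entered no comparison above, 101 passed the same threshold (46.3%), of which 62 rose and 39 fell.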

How the results depend on the processing

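The 40 genes with the largest changes kept their direction and passed the threshold in all 745 values that the alternatives gave. They were chosen from the same data for large changes and arrays that do not overlap. That outcome was therefore nearly fixed by the choice and is no test. Counts of calls depended more on the fit. With only the 8 arrays, 952 genes were called, 494 higher and 458 lower at 20.9% oxygen. With an adjusted p under 0.001, 1446 genes were called, 760 of them lower. Genes called at both the first and the last step numbered 413 with the replicate block, 1183 with array weights, 1297 with an adjusted p under 0.05 and 389 under 0.001, against 771. The replicate number as a block gave 1829 calls against 2209, and 1822 genes were shared. With single arrays left out the calls ranged from 1960 to 2306 (886 to 1055 higher, 1045 to 1251 lower), those of at least 2-fold from 308 to 429 and those at both steps from 678 to 824. Without the directly centrifuged samples 1552 genes were called, 1508 of them among the 2209, and without both arrays numbered 4 it was 2047 and 1714. With 2 of the 4 samples at 2.8%, closer to its 2 cultivations, 1540 to 1837 were called. Cyclic loess turned the split of higher and lower calls from 1014 and 1195 to 1165 and 941. Arrays centred on their medians gave 1093 and 1095. Values of genes in the dimmest range are limited by the floor of the arrays, and a filter on the dimmest 25% left 1776 calls.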
